A study of Mus musculus with 48 samples.

Results

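Neat1, Malat1, Snhg11, Meg3 and Kcnq1ot1 are long RNAs that act or stay in the cell nucleus, and they are 5 of the 55401 genes counted in colon tissue of 48 mice. They were taken by gene symbol (GENCODE vM21, matched by Ensembl identifier). Their set was chosen by the readout, with their low values in 2 mice, SV384 and SV385, already known. GENCODE lists 4 of them as noncoding and Snhg11, a snoRNA host gene, as protein coding.

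Mice were males on a C57BL/6J background, 18 to 20 weeks old, singly housed with running wheels and killed on the second day of constant darkness. Control mice carried the floxed clock gene in homozygous form (Bmal1fl/fl) and no Cre. Bmal1iec-/- littermates carried the same floxed alleles with Villin-driven Cre, which acts in intestinal epithelium, so that muscle, stroma, nerve and immune cells of the tissue keep Bmal1. Each genotype had 4 mice at each of 6 circadian times (CT1, CT5, CT9 in the circadian day, CT13, CT17, CT21 in the night), and each mouse was sampled at 1 time. SV384 and SV385 are Bmal1iec-/- mice at CT1 and are shown apart, which leaves 24 control and 22 Bmal1iec-/- mice.

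Long noncoding RNAs are transcribed and mostly capped and spliced like messenger RNAs but are not translated, and many remain at the chromatin or in nuclear bodies. Neat1 is the scaffold around which paraspeckles form, bodies that hold RNA-binding proteins such as SFPQ and NONO. Malat1 collects in nuclear speckles together with SR splicing factors. Meg3 is expressed from the maternal chromosome of the imprinted Dlk1-Dio3 domain, Kcnq1ot1 from the paternal chromosome of the Kcnq1 domain, where it silences neighbouring genes in cis, and Snhg11 hosts a snoRNA and is best known from neurons.

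Between 3144997 and 4785844 reads per mouse were counted, and normalized counts are these counts divided by DESeq2 size factors. The deleted gene, listed as Arntl, had a cosine amplitude of 131.9 ± 6.586 normalized counts (SE, n = 24) in control and of 21.49 ± 5.933 (SE, n = 22) in Bmal1iec-/- mice. Its mean level over the cycle was similar, at 132.1 in control and 129.4 in Bmal1iec-/- mice. By genotype it was not called (log2 fold change 0.32, adjusted p = 0.241 by edgeR's quasi-likelihood test). Nr1d1, a gene that BMAL1 activates, had a mean level over the cycle of 220.6 in control and 81.63 in Bmal1iec-/- mice. Epithelial markers (Epcam, Cdh1, Krt8 and others) summed to 13700 to 20900 CPM (counts scaled to library size) over the 46 mice, and none of the list was at 0 in all mice. In bulk tissue, fewer cells of a type and less RNA per cell cannot be told apart.

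The transcript ends bear on what a library of this kind counts. Libraries were made with a stranded mRNA kit, a design that as a rule captures poly(A) tails, while the methods also speak of rRNA depletion. Malat1 and the long Neat1 transcript are known to end, after cleavage by RNase P, in a triple helix of 2 U-rich stretches and an A-rich stretch instead of a poly(A) tail, whereas the short Neat1 transcript is polyadenylated. The GENCODE vM21 transcripts (GRCm38, minus strand, written as DNA 5′ to 3′) show both kinds of end. Capitals mark TTTCTTTT and TTTGCTTTT and the closing A-rich run, or the polyadenylation signal AATAAA.
Neat1-201, last 90 of 20771 bases, chr19:5824708-5824797: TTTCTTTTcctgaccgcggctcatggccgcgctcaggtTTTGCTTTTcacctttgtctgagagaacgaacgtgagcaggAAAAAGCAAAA
Malat1-201, bases 6602 to 6691, chr19:5795982-5796071: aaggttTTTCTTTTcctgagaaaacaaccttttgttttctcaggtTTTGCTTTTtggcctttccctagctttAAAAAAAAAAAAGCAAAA
Neat1-202, last 60 of 3004 bases, chr19:5842307-5842366: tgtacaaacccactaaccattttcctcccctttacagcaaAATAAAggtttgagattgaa
Malat1-201, last 60 of 6983 bases, chr19:5795690-5795749: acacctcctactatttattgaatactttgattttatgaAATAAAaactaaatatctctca
The 2 long ends share the order of the marked stretches. The annotated Malat1 model runs on for 292 bases past its A-rich run to its annotated end, and its polyadenylation signal lies in the last 60 of them. The table holds 1 count per gene, so short and long Neat1 transcripts were counted together, and whether a level reflects one or the other was not tested.

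Neat1 and Malat1 lie next to each other on chromosome 19, 22036 bases apart on the minus strand, and had similar levels per exonic length of the gene. For Neat1 this is the length of the long transcript, while the short one has 3004 bases. The share of each in the counts is not known, so the likeness depends on the length used. Neat1 (ENSMUSG00000092274.3, chr19:5824708-5845478, 1 exonic block of 20771 bases) had 84.0 ± 15.5 RPKM (reads scaled to exonic length and library size, SD, n = 24) in control mice. Malat1 (ENSMUSG00000092341.3, chr19:5795690-5802672, 6983 exonic bases) had 89.2 ± 20.7 RPKM (SD, n = 24), and their ranges of 55.2 to 126 and 43.6 to 129 overlapped almost entirely. Next came Snhg11 (ENSMUSG00000044349.16, chr2:158375638-158386145, plus strand, 4 exonic blocks of 8521 bases) with 4.79 ± 0.573 RPKM (SD, n = 24). Meg3 (ENSMUSG00000021268.17, chr12:109541001-109571726, plus strand, 8 blocks of 18089 bases) had 2.31 ± 0.434 RPKM (SD, n = 24). The lowest was Kcnq1ot1 (ENSMUSG00000101609.2, chr7:143203458-143296549, minus strand, 1 block of 93092 bases), with 0.0425 ± 0.0132 RPKM (SD, n = 24). Of these neighbours in the order, only Neat1 and Malat1 overlapped in control mice, and the order of the last 3 was the same in Bmal1iec-/- mice (4.3, 1.84 and 0.0413 RPKM). Kcnq1ot1 had 4 to 27 counts in each of the 46 mice, so its changes carry the widest errors of the set. It lies on the strand opposite to Kcnq1, which overlaps it, and the strand setting of the counting is not given in the sources used here.

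All 5 RNAs were low together in SV384 and SV385. This is the pattern behind their choice and is given as a description without a test. Neat1 had 1232 and 1337 normalized counts in SV384 and SV385 against 5374 and 5275 in SV479 and SV480, the other Bmal1iec-/- mice at CT1, a mean 4.15-fold lower. Malat1 had 837.3 and 514.7 against 2937 and 3284, 4.6-fold lower. Both mice were thus low in each RNA, but Neat1 was almost the same in the pair while Malat1 differed between them. Snhg11 had 21.09 and 7.019 normalized counts against 152.4 and 147.0, 10.7-fold lower and the widest gap of the set. Meg3 had 52.1 and 11.7 against 144.0 and 118.2, 4.11-fold lower, with SV385 well under SV384. Kcnq1ot1 had 2.481 and 0.0 normalized counts (2 and 0 counts) against 11.64 and 12.34, 9.67-fold lower. So few counts fix its fold poorly: the ratio of the summed counts, 9.96 after division by summed size factors, has an exact 95% counting interval of 2.46 to 87.2, given here as a description.

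**Figure D1:**
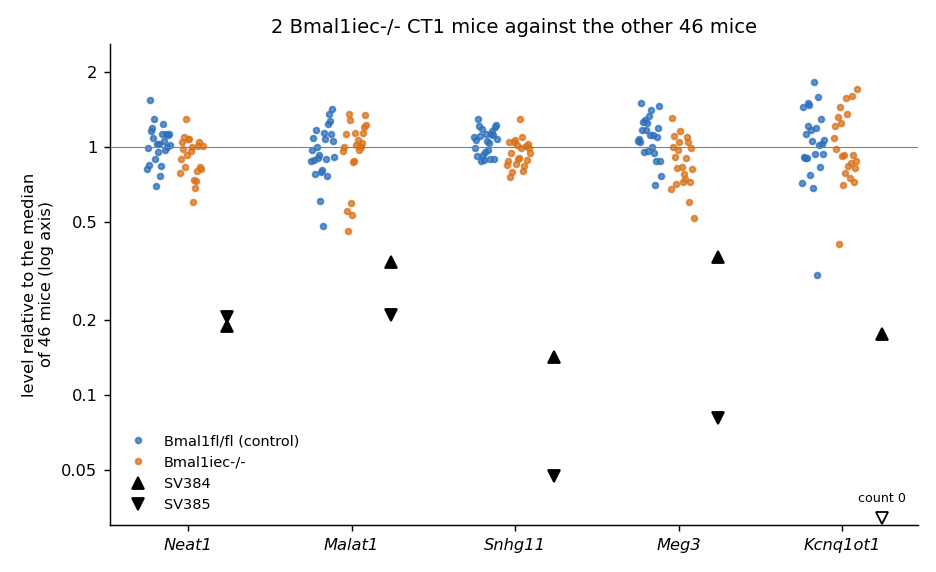
Levels of the 5 RNAs in each mouse, as the ratio to the median of the 46 mice on a log axis, with control mice in blue, Bmal1iec-/- mice in orange and SV384 and SV385 as triangles (open: count of 0). Both triangles lie below every other mouse for each RNA, and the lowest of the 46 mice was 1.33 times (Malat1) to 5.32 times (Snhg11) the higher of the pair.

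SV384 and SV385 lay below all 46 other mice for all 5 RNAs. They also did so for 5.68% of the 14475 tested genes and for 19.3% of the 641 long noncoding genes among them. The distance to the nearest other mouse differed between members. The lowest of the 46 mice exceeded the higher of the pair 5.32 times for Snhg11 and 2.9 times for Neat1. It did so 1.73 times for Kcnq1ot1, 1.44 times for Meg3 and 1.33 times for Malat1. Ranked by the ratio of the pair to SV479 and SV480, Snhg11 was among the lowest 0.187% of tested genes and Kcnq1ot1 among the lowest 0.366%. Malat1, Neat1 and Meg3 were among the lowest 1.13%, 1.4% and 1.46%. The choice of the RNAs fixed that these ranks would be low, so they are a description. Of the long noncoding genes tested, 13.6% had a log2 ratio of -2.0 or lower.

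The rest of the noncoding class was low in the pair as well. Of 641 long noncoding genes tested, 43.8% were over 2-fold lower in SV384 and SV385 than in SV479 and SV480, compared with 7.65% of all 14475 tested genes and 4.67% of 13247 protein coding genes. The median log2 ratio was -0.84 for long noncoding genes and 0.01 for protein coding genes. Among the 46 long noncoding genes with a mean of at least 100 normalized counts, 37.0% were over 2-fold lower. Long noncoding genes made up 0.5137% and 0.4596% of the counts in SV384 and SV385, under the 0.75% to 1.0862% of the other mice. These shares include the noncoding members and so partly repeat their choice. The 5 RNAs alone made up 0.0528% and 0.0422% in SV384 and SV385, against 0.2181% and 0.2246% in SV479 and SV480. Genes in 1 exonic block, which include Neat1, Malat1 and Kcnq1ot1, were over 2-fold lower in 25.2% of 731 cases, against 6.7% of 13739 genes in 2 blocks or more. Exonic length moved with the ratio too, from a median log2 ratio of 0.18 in the shortest of 4 equal groups of genes to -0.17 in the longest, whereas the share over 2-fold lower was 11.4% in the shortest and 6.38% in the longest.

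**Figure D2:**
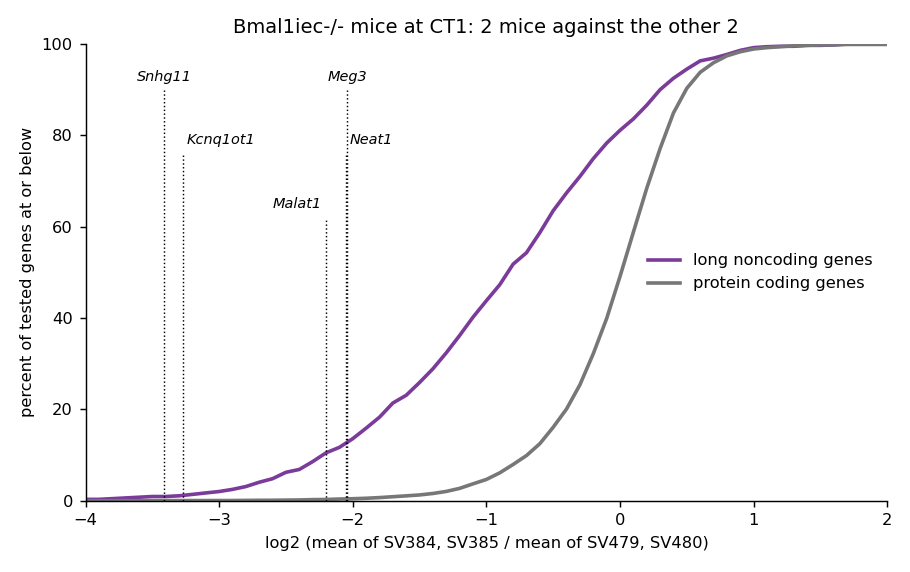
Cumulative share of tested genes (percent) by the log2 ratio of SV384 and SV385 to SV479 and SV480, for long noncoding (purple) and protein coding genes (grey), with dotted lines at the 5 RNAs. The purple curve lies to the left, at a median of -0.84 against 0.01, and the 5 RNAs stand at -2.04 to -3.41.

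Most lists of genes with roles beside these RNAs had medians below 0 in the pair, and single genes differed widely. The 18 paraspeckle protein genes, partners of Neat1, had a median log2 ratio of -0.49, with 3 over 2-fold lower and 3 above 0. The 19 speckle and SR protein genes, partners of Malat1, had a median of -0.61, with 6 over 2-fold lower and 2 above 0. For 11 other long noncoding RNAs tested (Miat, Tug1, Firre and others) the median was -0.99, and 5 were over 2-fold lower. Miat had 3.721 and 0.0 normalized counts against 16.94 and 19.53, and its log2 ratio of -2.99 lay below those of Neat1, Malat1 and Meg3. Each of these lists summed to less in SV384 and SV385 than in any of the 46 mice. The 11 other snoRNA host genes tested were closer to the rest, at a median of -0.35 with 1 over 2-fold lower, Snhg17, the tested gene nearest to Snhg11 at lower coordinates. The 9 tested genes of the Kcnq1 domain, listed beside Kcnq1ot1, went the other way. Their median was 0.34, with 6 above 0 and none over 2-fold lower.

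Genes that lie beside the 5 RNAs did not all share their low values. Frmd8, the first tested gene past Neat1, had 162.5 and 183.7 normalized counts in the pair against 103.7 and 95.61 in SV479 and SV480, and was therefore higher. Kcnq1, the potassium channel gene that overlaps Kcnq1ot1 on the other strand, had 463.9 and 479.6 against 327.1 and 315.6. Ralgapb beside Snhg11, Wdr25 beside Meg3 and Trpm5 and Cdkn1c beside Kcnq1ot1 had log2 ratios between -0.27 and 0.24. The noncoding neighbours were low. Rian, which follows Meg3 in the same imprinted domain, had 95.51 and 44.45 against 179.9 and 129.5, and Snhg17 had 50.86 and 31.59 against 102.7 and 107.9.

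Measures of the libraries moved with these values. SV384 and SV385 had 18697 and 18285 detected genes, against at least 19577 in each other mouse, while their total counts (3271891 and 3785972) lay within the range of the others. Mitochondrial genes held 6.5982% and 7.4051% of their counts, against 4.0699% to 6.7054%. Markers of some other cell types separated the pair, and those of others did not. Fibroblast markers summed to 1550 CPM in SV384, within the 881 to 1740 of the 46 mice, and to 370 in SV385. Smooth muscle markers summed to 3180 and 774 against 3110 to 5710, enteric neuron markers to 248 and 124 against 153 to 322, and epithelial markers to 21100 and 24300 against 13700 to 20900. SV384 was thus within the range of the other mice for fibroblast, muscle and neuron markers and SV385 below that range. The sum of the goblet cell markers was below the range in both mice, at 11600 and 14300 CPM against 14600 to 26400. Muc2, the most abundant of them, had 27580 and 27610 normalized counts against 43350 and 44630 in SV479 and SV480. The other goblet markers were higher in the pair: 4 of 5 had a log2 ratio above 0, with a median of 0.45 for the list. B cell, plasma cell and adipocyte markers lay within the range in both. The part of these cells and of library quality in the low values was not tested. RNA integrity values were not used here.

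Over the other 46 mice, Neat1 and Meg3 were lower in Bmal1iec-/- mice. In this comparison, with circadian time in the model, 1605 of 14475 genes (11.1%) had an adjusted p under 0.05 and 197 (1.36%) also passed a fold change of 1.5. Of the 5 members 2 passed the first threshold, both lower, as were 5.64% of all genes (5.44% were higher), and none reached a 1.5-fold change. Neat1 had a lowest, median and highest normalized count of 4509, 6645 and 9969 in control and of 3881, 6095 and 8366 in Bmal1iec-/- mice. Its log2 fold change was -0.18 (SE 0.05, adjusted p = 0.0118 by edgeR's quasi-likelihood test), 11.6% less by the model's estimate (fold 0.884). Its mean was lower at 6 of 6 times, and the single mice of the genotypes did not overlap at CT1, as in 14.3% of tested genes in that direction, with 2 Bmal1iec-/- mice at that time. Without CT1 the log2 fold change was -0.15 (adjusted p = 0.0704, same test), and without circadian time in the model -0.17 (adjusted p = 0.177), so that the Neat1 call rested on CT1 and on the time term.

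Meg3, the maternally expressed RNA, showed the larger difference. Its lowest, median and highest normalized counts were 102.2, 160.7 and 218.0 in control and 75.19, 125.8 and 190.3 in Bmal1iec-/- mice. The log2 fold change was -0.31 (SE 0.08, adjusted p = 0.00812 by edgeR's quasi-likelihood test, fold 0.804). At CT9 control mice had 218.0, 169.7, 182.9 and 185.3 and Bmal1iec-/- mice 145.1, 160.9, 132.5 and 119.4. At CT13 control mice had 153.9, 156.2, 170.0 and 181.6 and Bmal1iec-/- mice 98.5, 113.3, 108.1 and 131.3. The genotypes did not overlap at either time, as in 2.21% and 6.43% of tested genes in that direction, and the mean was lower in Bmal1iec-/- mice at 6 of 6 times. Rian, the next tested RNA of the domain, had 150.3 ± 40.04 (SD, n = 24) in control mice, 124.1 ± 41.49 (SD, n = 22) in Bmal1iec-/- mice, and its log2 value fell by 0.24 (SE 0.08, adjusted p = 0.0498, same test). Of 6 genes listed for the domain beside Meg3, 2 had enough counts to be tested. Rian was the 1 that passed, beside 11.1% of all tested genes.

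Snhg11 narrowly missed the threshold, and Malat1 and Kcnq1ot1 were far from it. Snhg11 had 157.2 ± 18.23 normalized counts (SD, n = 24) in control mice, 141.4 ± 18.43 (SD, n = 22) in Bmal1iec-/- mice, a log2 fold change of -0.15 (SE 0.05, adjusted p = 0.0546 by edgeR's quasi-likelihood test, 95% interval -0.25 to -0.05). With single mice left out its adjusted p ran from 0.0162 to 0.0997 and passed in 15 of 46 cases. Snhg17, 14058 bases away on the opposite strand, went the other way, with a log2 fold change of 0.23 (SE 0.06, adjusted p = 0.00647, same test). It was the 1 of 11 snoRNA host genes that passed, beside 11.1% of all tested genes. Malat1 had 2398 ± 554.8 (SD, n = 24) and 2417 ± 629.1 (SD, n = 22) normalized counts, and the 95% interval of its log2 fold change of 0.04 was -0.16 to 0.24 (adjusted p = 0.858). Kcnq1ot1 had 15.23 ± 4.723 (SD, n = 24) and 14.81 ± 4.795 (SD, n = 22), with an interval of -0.32 to 0.21 around -0.06 (adjusted p = 0.856).

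**Figure D3:**
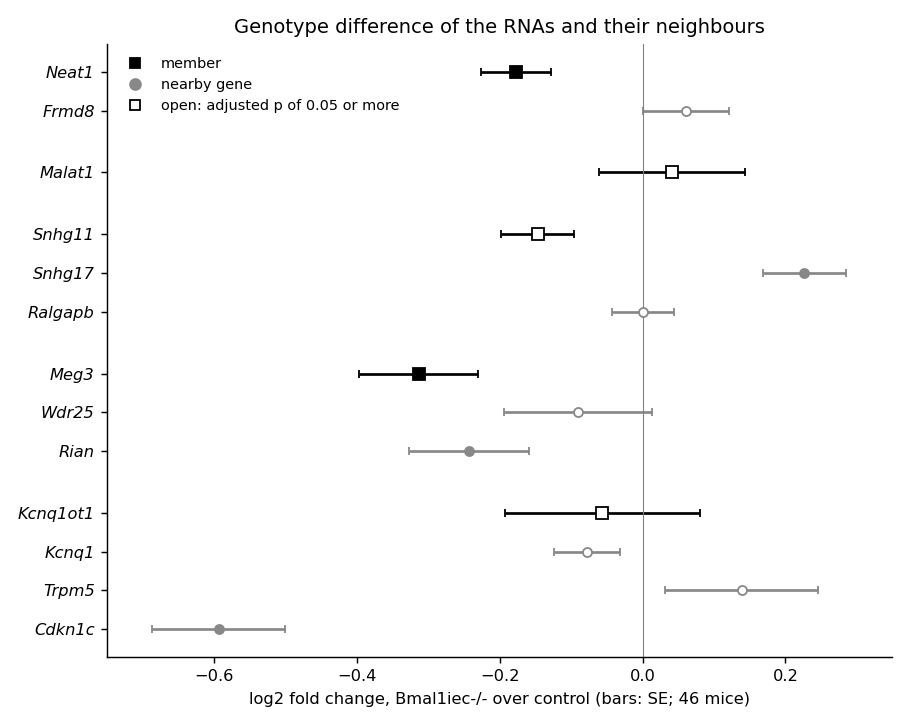
Log2 fold change of Bmal1iec-/- over control mice (x axis, bars SE, 46 mice) for the 5 RNAs (squares) and nearby or overlapping tested genes (circles), filled where the adjusted p was under 0.05. Neat1 and Meg3 lie left of 0 at -0.18 and -0.31, Rian with Meg3 at -0.24, and Cdkn1c at -0.59 beside an open Kcnq1ot1 at -0.06.

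In the Kcnq1 domain the RNA and the genes near it were not alike. Cdkn1c, a cell cycle inhibitor whose paternal copy Kcnq1ot1 is known to silence, had 26.35 ± 4.829 normalized counts (SD, n = 24) in control mice, 17.38 ± 4.789 (SD, n = 22) in Bmal1iec-/- mice, a log2 fold change of -0.59 (SE 0.09, adjusted p = 6.34e-06 by edgeR's quasi-likelihood test). It was the 1 of 9 tested genes of the domain that passed, beside 11.1% of all tested genes. Kcnq1 itself had a log2 fold change of -0.08 (SE 0.05, adjusted p = 0.302, same test), and the median of the 9 genes was 0.07. Beside the median log2 fold change of 0.00 over all tested genes, the other lists stood close to it. Over all tested genes 5.44% passed as higher and 5.64% as lower. Of 18 paraspeckle protein genes 2 were higher, Sfpq (0.19, adjusted p = 0.0135) and Taf15 (0.10, adjusted p = 0.0453), and none lower, with a median of 0.04. Of 19 speckle and SR protein genes 1 was higher, Tra2b (0.13, adjusted p = 0.0161), with a median of 0.05. Among 11 other long noncoding RNAs 1 was lower, Miat (-0.52, adjusted p = 0.00071), which is known from neurons and nuclear bodies.

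A minority of the markers of muscle, stroma and nerves were lower in Bmal1iec-/- mice, as Meg3 was, beside 5.64% of all tested genes that were lower. Of the enteric neuron markers 2 of 12 were lower in Bmal1iec-/- mice, Vip (-0.41, adjusted p = 0.000285 by edgeR's quasi-likelihood test) and Ret (-0.18, adjusted p = 0.0481). Of the smooth muscle markers 2 of 6 were lower, of the fibroblast markers 1 of 7 (Dcn), of the endothelial markers 2 of 4, of the enteric glia markers 1 of 4 and of the adipocyte markers 1 of 4, and none of these was higher. Epithelial markers were higher in 3 and lower in 2 of 9, and goblet cell markers higher in 2 and lower in 2 of 5. Of all tested genes 5.44% were higher. Of the tested markers of T cells, B cells, plasma cells, macrophages, pancreas and small intestine none passed. The summed enteric neuron markers ran from 195 to 322 CPM in control and from 153 to 263 in Bmal1iec-/- mice, the smooth muscle markers from 3550 to 5710 and from 3110 to 5310, and the fibroblast markers from 966 to 1680 and from 881 to 1740. The part of these cells in the Meg3 difference was not tested.

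Neat1 was the member whose level moved with circadian time, and its highest and lowest times were the same in both genotypes. Control mice had 9969, 7523, 7683 and 8372 normalized counts at CT9 and 5285, 6406, 5798 and 4509 at CT13, a 1.52-fold lower mean. Bmal1iec-/- mice had 6796, 6364, 7059 and 8366 at CT9 and 5093, 3881, 4767 and 4402 at CT13, 1.58-fold lower. CT9 was the highest and CT13 the lowest of the 6 times in each genotype, and the mice of these times did not overlap. Such a gap between CT9 and CT13 in both genotypes was found in 1.31% of tested genes. These are the highest and lowest times of Neat1 itself, so this share is a description only. In between, control means ran in the order CT21, CT17, CT5 and CT1, and neighbours in that order overlapped except CT1 and CT9.

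JTK_cycle, the main test of a 24 h rhythm, missed Neat1. A cosine F test called it in control mice, and a test of the times as separate levels called it in both genotypes. The adjusted p of JTK_cycle is corrected over the phases tried for each gene and not across genes, unlike that of the edgeR tests. JTK_cycle called 24.1% of 32471 genes rhythmic in control and 14.2% in Bmal1iec-/- mice. By JTK_cycle Neat1 had an adjusted p of 0.0583 in control and of 0.132 in Bmal1iec-/- mice. Its cosine fit had an amplitude of 848.3 ± 310.3 normalized counts (SE, n = 24) around a level of 6712 in control and of 762.5 ± 278.3 (SE, n = 22) around 5976 in Bmal1iec-/- mice. The fitted peaks were at CT 5.98 and CT 5.34, with SE of 1.4 and 1.49 h. In control mice the F test of a cosine gave Neat1 an adjusted p of 0.0343, where 52.1% of genes passed (edgeR's quasi-likelihood test). In Bmal1iec-/- mice the same test gave 0.0819, where 24.4% passed. An F test of the 6 times as levels, added after the values were seen, gave an adjusted p of 0.00168 in control, where 47.4% of genes passed, and of 0.00136 in Bmal1iec-/- mice, where 14.5% passed (edgeR's quasi-likelihood test). Each call by levels held with any 1 mouse left out (adjusted p up to 0.00956 and 0.0053), but with SV384 and SV385 included the Bmal1iec-/- value was 0.0661. Single control mice decided the JTK_cycle call, which was under the threshold in 10 of 24 cases with 1 mouse left out (0.013 to 0.147).

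**Figure D4:**
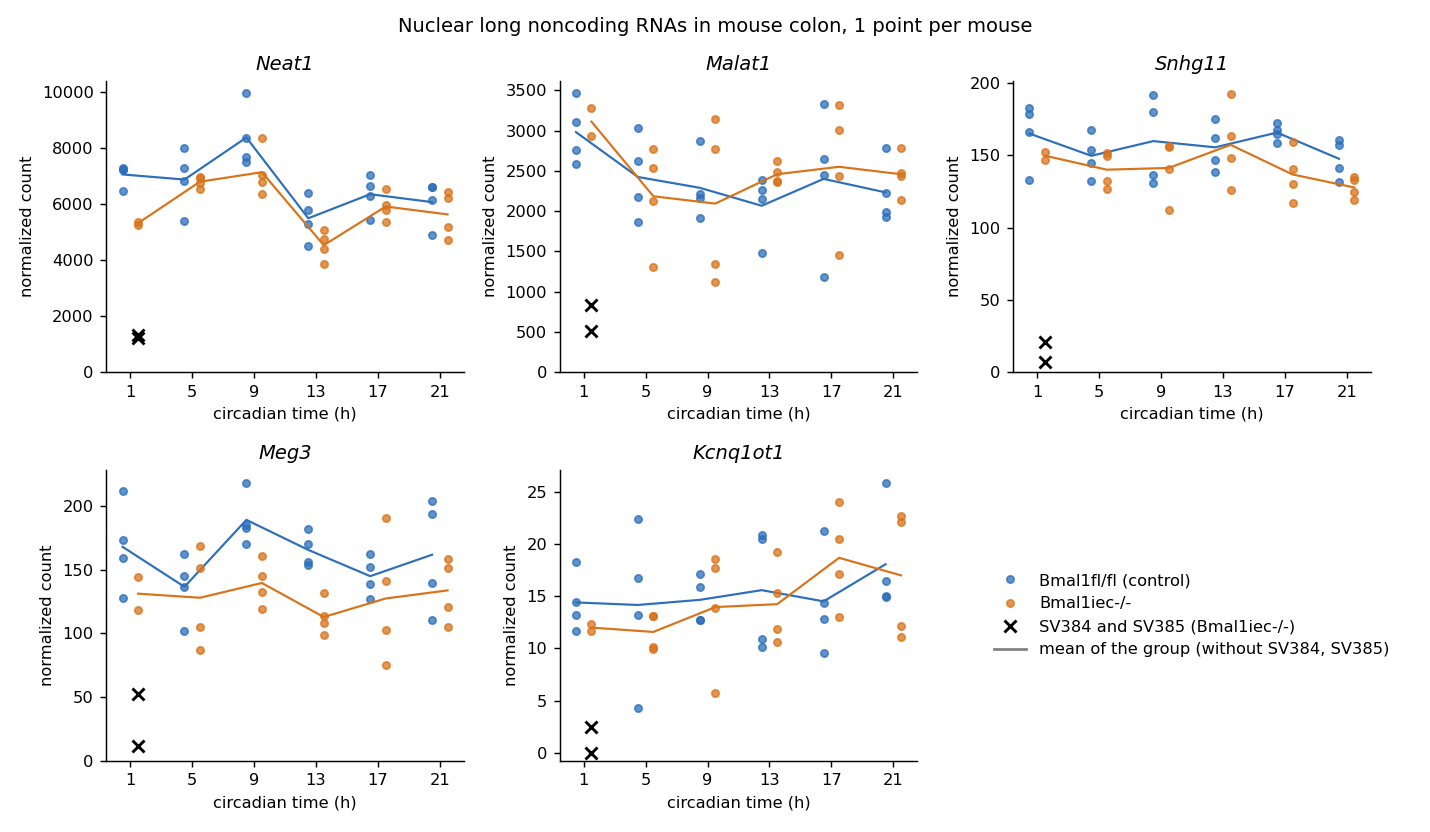
Normalized counts of the 5 RNAs by circadian time (h), 1 point per mouse, control in blue, Bmal1iec-/- in orange, lines through group means and crosses for SV384 and SV385, which are not in the means. Neat1 falls from CT9 to CT13 in both genotypes (8387 to 5500 and 7146 to 4536), the other RNAs scatter without such a gap, and the crosses lie at the foot of each panel.

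The other 4 RNAs gave no call in either genotype. Their JTK_cycle adjusted p was 0.439 for Malat1 in control, 0.209 for Kcnq1ot1 in Bmal1iec-/- mice and 1 for all others. By the test of times as levels their adjusted p ran from 0.131 (Meg3 in control) to 0.92 (edgeR's quasi-likelihood test). Malat1 had its highest mean at CT1 in each genotype, with 3110, 2763, 3467 and 2580 normalized counts in control and 2937 and 3284 in Bmal1iec-/- mice. In control mice these lay above all mice of CT13 and overlapped with the other times. In Bmal1iec-/- mice, with 2 mice at CT1, they lay above all mice of CT5, CT13 and CT21. The share of all tested genes with such gaps was not counted. By the test of times as levels Malat1 had an adjusted p of 0.27 in control and of 0.662 in Bmal1iec-/- mice. Rian, beside Meg3, was rhythmic by JTK_cycle in control (adjusted p = 0.000113) and in Bmal1iec-/- mice (adjusted p = 0.014), while Meg3 was not called in either. Of the 18 paraspeckle protein genes 14 were rhythmic in control and 8 in Bmal1iec-/- mice, of the 19 speckle and SR protein genes 6 and 4. Among all 14475 genes tested by genotype 50.0% and 29.3% were.

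No member passed a test for a difference between the genotypes in its course over time. A test of a change in the 24 h rhythm called 0.940% of 14475 genes and none of the members, whose adjusted p ran from 0.881 (Malat1) to 0.991 (Neat1) by edgeR's quasi-likelihood test. At an unadjusted p under 0.05 the count of members was also 0, as it was with DESeq2 after adjustment. The interaction of genotype with day or night called 0.0691% of genes and none of the members, with adjusted p from 0.722 (Malat1) to 0.999 (Snhg11, same test). The interaction of Malat1 on the log2 scale was 0.29 (SE 0.21) and that of Neat1 0.01 (SE 0.12). By comparison, the adjusted p for the change of rhythm was 5.05e-13 for Arntl and 0.985 for Nr1d1, whose amplitude by the cosine fit, like its level, was lower in Bmal1iec-/- mice (95.21 against 273.9 normalized counts). The test works on the log scale, where an amplitude that falls in proportion to the level is no change. Relative to its level the Nr1d1 amplitude was 124% in control and 117% in Bmal1iec-/- mice. Of 27025 RefSeq promoters (GRCm38, 250 bases before to 50 after the start) 8.09% held CACGTG, the E-box that BMAL1 complexes bind, on either strand, and 1.11% held TTATGTAA, a D-box. Neither was among the letters of the promoters of Malat1, Snhg11, Meg3 and Kcnq1ot1, and Neat1 has no entry in that table.

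Without SV384 and SV385, 1 of the 10 pairs of members passed a test of correlation over the 46 mice, after adjustment over the 10. Pearson's r of log2 CPM ran from -0.247 to 0.425. Malat1 and Kcnq1ot1 had r = 0.425 (permutation p = 0.00337, adjusted p = 0.0337, n = 46) and Spearman's rho = 0.324 (permutation p = 0.0289, adjusted p = 0.289). Without the 2 mice farthest from the median of Malat1 r was 0.272, so that this relation rested on those mice. Within the groups of genotype and time its r was 0.511. No r over all 48 mice is given, since the RNAs were chosen as low together in SV384 and SV385.

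Of the 2 abundant members, Malat1 had the higher coefficient of variation in 10 of 12 groups of genotype and time. Its values ran from 1178 to 3326 among control mice at CT17, and from 1117 to 3142 among Bmal1iec-/- mice at CT9. Over all times the coefficient was 23.1% in control and 26.0% in Bmal1iec-/- mice, against 17.8% and 17.9% for Neat1. The genes most like it over the 46 mice were Thoc2 of the THO export complex (r = 0.904), the ubiquitin proteases Usp34 (0.895) and Usp9x (0.889), Zfp292 (0.89) and Fam208a (0.887). These values are descriptions across mice that share libraries and depth. The gene most opposed was Psap, the lysosomal prosaposin (r = -0.816). In SV384 and SV385 the 5 genes most like Malat1 had log2 ratios of -0.23 to -0.79, against -2.20 for Malat1.

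Library and marker measures went with some members. In all, 40 relations of the 5 members to 8 measures were computed and adjusted together. Malat1 rose with the share of mitochondrial counts (r = 0.584, permutation p = 4e-05, adjusted p = 0.0016, n = 46; rho = 0.58, permutation p = 4e-05). Without the 2 farthest mice r was 0.473, and within groups 0.537. Malat1 was lower where summed fibroblast markers were higher (r = -0.454, permutation p = 0.00133, adjusted p = 0.00887; rho = -0.447, permutation p = 0.00219; -0.46 without the 2 farthest mice), more so within groups (-0.733). Meg3 was higher in mice with more enteric neuron markers (r = 0.554, permutation p = 0.00015, adjusted p = 0.002; rho = 0.505, permutation p = 0.00048; 0.527 without the 2 farthest mice, 0.488 within groups). It was also higher with fibroblast markers (r = 0.462, permutation p = 0.0011, adjusted p = 0.00887; rho = 0.47, permutation p = 0.00111; 0.494 and 0.535) and with smooth muscle markers (r = 0.467, permutation p = 0.00114, adjusted p = 0.00887; rho = 0.462, permutation p = 0.00151; 0.386 and 0.286). Neat1 went with fibroblast markers over all mice (r = 0.524, permutation p = 0.00015, adjusted p = 0.002; rho = 0.524, permutation p = 0.00028; 0.468 without the 2 farthest mice), but not within groups of genotype and time (-0.09). Snhg11 and Kcnq1ot1 passed with none of the 8 measures.

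**Figure D5:**
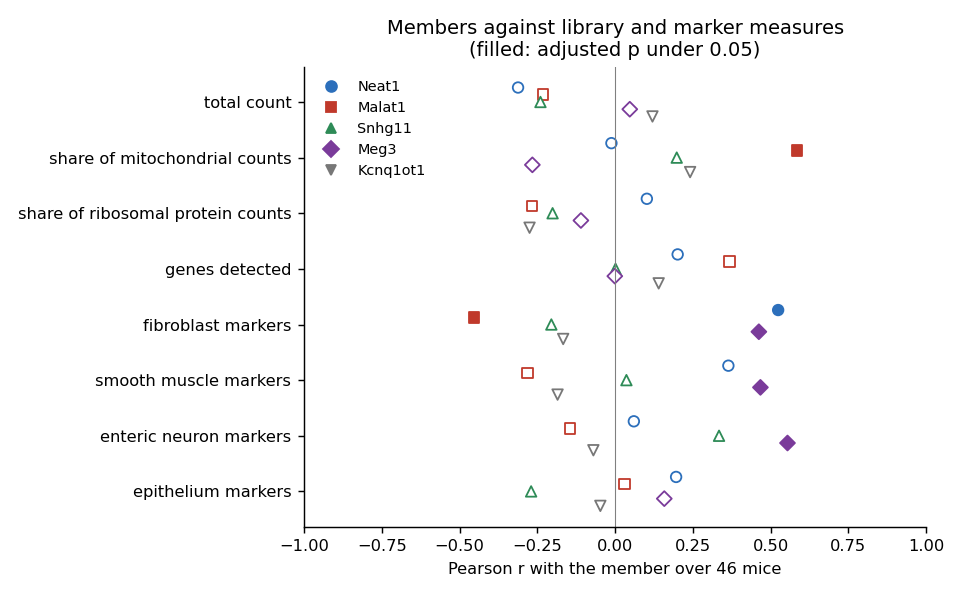
Pearson's r (x axis) of each RNA with 4 library measures and 4 summed marker lists over the 46 mice, filled where the adjusted p over the 40 relations was under 0.05. Malat1 stands at 0.584 for the mitochondrial share and at -0.454 for fibroblast markers, and Meg3 at 0.462 to 0.554 for the stromal, muscle and neuron markers.

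The genes most like the other members were of several kinds. For Meg3 they were Ccdc102a (r = 0.66), Rap1gap (0.64), Aldoc (0.632), the calcium channel Cacna1h (0.623) and Bmp7, a growth factor (0.613), and the most opposed was the goblet cell lectin Zg16 (-0.657). Of these 5, 4 were also lower in Bmal1iec-/- mice, as were 5.64% of all tested genes, and Zg16 was higher (log2 fold change 0.71, adjusted p = 8.85e-10 by edgeR's quasi-likelihood test). Likeness was ranked over both genotypes together, and Meg3 itself was lower in Bmal1iec-/- mice. Such a ranking favours genes that differ by genotype, so the count is a description only. For Neat1 they were the histone gene H3f3b (0.687), Cnrip1 (0.678), the Wnt pathway factor Tcf7l2 (0.667), Plscr1 (0.665) and Sybu (0.663). For Snhg11 they were Gprasp2 (0.649), Lmo4 and Tmem243 (0.582 each), Satb1 (0.565) and Mmrn1 (0.554). Kcnq1ot1 had the weakest likeness, with Zfp946 at 0.564 as the highest of all tested genes.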

How the data were processed

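The authors trimmed paired reads with Trimmomatic 0.39, aligned them to mm10 with STAR 2.7.5c and counted reads of mapping quality 4 or more on exons with featureCounts 1.4.6. The deposited values are whole read counts per gene and mouse without normalization. The annotation release and strand setting are not given in the sources used here. Per the authors' methods low-quality samples were removed. A batch is not given in the labels.

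From these counts, genes kept by filterByExpr (14475) were fitted in edgeR 4.0.16 (TMM, quasi-likelihood F test, Benjamini-Hochberg over all genes, threshold 0.05) over 46 mice. Models held genotype and time (6 levels), genotype by period (day CT1 to CT9), or genotype by a 24 h cosine and sine. JTK_cycle (own implementation, 12 phases, p adjusted over phases only) ran on the 32471 genes with at least 1 count, divided by DESeq2 1.42.0 size factors. SV384 and SV385 were scaled against the same reference. RPKM used the exonic length. Correlations used log2 CPM (prior count 2) and 100000 permutations (scipy 1.17.1, R 4.3.3). Replicates are separate mice. The interval of the Kcnq1ot1 fold in SV384 and SV385 and the floor of 3 counts cover counting error only. Intervals of log2 fold changes come from the SE of the edgeR fit, which includes variation between mice. Fits, JTK_cycle and correlations were tested on simulated data. Members and gene lists were chosen with earlier results of these data known. Named genes were the members, Arntl and Nr1d1, at most 3 per list by adjusted p, overlapping and nearest tested genes (1 is not reported here), and the 5 most alike by r; the most opposed gene and the library measures were added after values were seen. Alternatives were other mice, tools, scaling, filters and models, and leaving out each mouse.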

Additional observations from a re-analysis of the deposited data

Results flagged for a closer look

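Of 60 groups of 4 mice (5 RNAs in 12 groups), 2 held a mouse whose gap to the nearest other exceeded Dixon's critical value for 4 samples. Chance gives about 1 in 20. The Bmal1iec-/- groups at CT1 included SV384 and SV385 here. With 2 low mice beside 2 high ones this gap cannot flag a mouse, so these groups were not in effect tested. In control mice at CT1, Neat1 was 6489 normalized counts in SV455, below the other 3 mice at 7221 to 7280. In control mice at CT21, Kcnq1ot1 was 25.83 normalized counts (27 counts) in SV441, above the others at 14.93 to 16.43.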

How the results depend on the processing

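When single mice were left out, the genotype comparison called 1457 to 1647 genes and 2 to 3 members, and the Neat1 and Meg3 calls held in 46 of 46 cases. The interaction then called 7 to 15 genes and the change of rhythm 110 to 162, with 0 members in each. JTK_cycle called 0 to 1 members in either genotype, Neat1 in control mice without SV396, SV397, SV417, SV421, SV424, SV433, SV438, SV442, SV455 or SV476 and in Bmal1iec-/- mice without SV481 (adjusted p = 0.046). Snhg11 passed by genotype without SV397, SV400, SV401, SV418, SV420, SV424, SV433, SV437, SV440, SV442, SV446, SV448, SV450, SV455 or SV477. Malat1 passed the test of times as levels in control mice without SV438 (adjusted p = 0.04 by edgeR). Without circadian time in the model 819 genes and 1 member (Meg3) were called, and without CT1 1 member (Meg3). The interaction called 10 genes, and 18 over all 48 mice and 18 with DESeq2. The change of rhythm called 136 genes, and 278 over all 48 mice. Adjustment across transcripts moved the JTK_cycle counts from 7810 to 5018 in control and from 4597 to 1396 in Bmal1iec-/- mice. The F test of a cosine called 1 member in control (Neat1, adjusted p = 0.0343 by edgeR, where 52.1% of genes passed) and 0 in Bmal1iec-/- mice (24.4% passed). The F test of times as levels, added later, called 1 member (Neat1) in each genotype, and 2117 genes in Bmal1iec-/- mice or 2153 over all 24. DESeq2 called 1646 genes by genotype, 2 of them members. Over all 48 mice the log2 fold change of Neat1 was -0.31 (adjusted p = 0.0491), that of Snhg11 -0.28 (0.126) and that of Meg3 -0.42 (0.0134). Including SV384 and SV385 turned the sign of values that had missed the threshold: Malat1 by genotype to -0.0799, and the interactions of Snhg11 to 0.23 and of Meg3 to 0.16. Correlations over all 48 mice are not given, because the choice of the RNAs fixes them. Leaving out single mice turned the sign of uncalled interactions of Neat1 (-0.0433 to 0.0502), Snhg11 (-0.049 to 0.0238) and Meg3 (-0.108 to 0.015). The folds of SV384 and SV385 below SV479 and SV480 stayed within 1.5 times with TMM or with size factors of all 48 mice. No paired analysis was possible because each mouse was sampled at 1 time and the labels give no pairs.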
